A study of Schizosaccharomyces pombe with 25 samples.

Results

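Small nucleolar RNA (snoRNA) genes of the fission yeast Schizosaccharomyces pombe were described from the gene annotation deposited with the study. The members were all genes typed snoRNA on the nuclear sequences I, IIc and III, which gave 55 of 6968 nuclear genes. The study sequenced DNA from 25 chromatin immunoprecipitations, in 13 groups by strain and target. CENP-A, the centromeric histone H3 variant named Cnp1 in this yeast, was precipitated in 9 samples with anti-Cnp1 serum: in pht1∆, swr1∆, msc1∆ and wt strains, each with and without cc2∆:cc1, in which central core 1 replaces central core 2 of the centromere of chromosome II, with 1 sample per group except wt without the exchange, which had 2. The histone variant H2A.Z, as Pht1-myc, was the target in 12 samples, with 4 from each of swr1∆, msc1∆ and wt strains; Swr1-myc and Msc1-flag were targets in 2 wt samples each. IIc is chromosome II in the deposited reference, which is marked as lacking central core 2, and no sample value enters what follows: each count describes 1 annotation, without sampling error and without a test.

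SnoRNAs are short stable RNAs of the nucleolus that direct the chemical modification of ribosomal RNA (rRNA) by base pairing with it. Box C/D snoRNAs guide 2′-O-methylation and are bound at the C box near the 5′ end and the D box near the 3′ end, with the guide stretch lying just before a D box or an internal copy of it. Box H/ACA snoRNAs guide pseudouridylation and end shortly after the triplet ACA. A few members of both classes act in cleavage of the rRNA precursor instead. In eukaryotes snoRNAs are made from genes of their own, from precursors that hold several snoRNAs in a row, or from introns of host genes, where the snoRNA is trimmed out of the spliced intron.

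Chromosome I held 32 of the snoRNA genes, IIc held 19 and III held 4. These shares were 58.2%, 34.5% and 7.27% of the snoRNA genes, against 44.9%, 36.6% and 18.5% of all nuclear genes. The forward strand carried 36 and the reverse strand 19, and all 4 on chromosome III lay on the forward strand. The member nearest to the centromeric interval was snoR54 on IIc at 59.4 kb, snr62 on I at 60.9 kb and snR10 on III at 71.8 kb. The centromeric interval was taken as the longest stretch between protein-coding genes on each chromosome: 39182 bases on I, 50558 on IIc and 78172 on III. No snoRNA gene lay inside a centromeric interval. By this definition only the 36 members that overlap no protein-coding gene could lie wholly inside one.

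All 55 genes were found by systematic identifier in the RefSeq annotation of assembly ASM294v3, and 53 had the same length there. The exceptions were snR90, with 225 bases in the deposited annotation and 488 in RefSeq, and snoZ30, with 300 and 95 bases. A single gene, snR46, differed in strand: it was on the forward strand in the deposited annotation and on the reverse strand in RefSeq. The RefSeq product names call 19 of the genes box H/ACA and 1, snoZ30, box C/D, and state no class for the rest. Both annotations also list the U3 genes snu3 and snu32, whose RNA acts in rRNA precursor cleavage, but the deposited annotation types them as snRNA, so they are not among the 55.

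The H/ACA genes were the longer class. Their median length was 168 bases (range 142 to 273, n = 19), against 84.5 bases (47 to 653) for the 36 genes without that class in the name. Of those 36, all but 4 were shorter than the shortest H/ACA gene: sno16 had 187 bases, snoZ30 300, snR30 326 and snoR61 653. In budding yeast snR30 is an H/ACA RNA that acts in precursor cleavage, although the product name used here does not say so. The shortest genes were snoU24 with 47 bases, snoR68 with 73, and snoR38 and snr62 with 74 each.

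**Figure D1:**
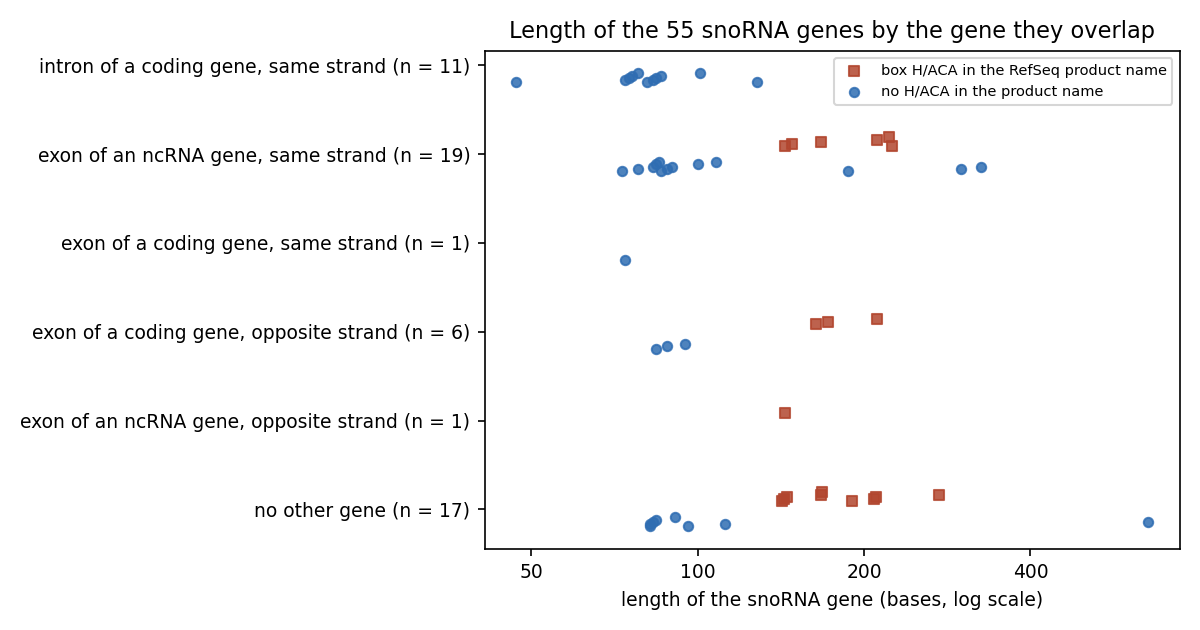
Length of each of the 55 snoRNA genes in bases (log scale), in rows by the gene it overlaps in the deposited annotation, with each gene in 1 row. Red squares are the 19 genes called box H/ACA in RefSeq and blue circles the other 36; the 11 genes inside introns of protein-coding genes are all blue and lie between 47 and 128 bases.

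Each snoRNA gene was placed once by the gene it overlaps. An intron of a protein-coding gene on the same strand held 11 (20%), and an exon of a non-coding RNA (ncRNA) gene on the same strand overlapped 19 (34.5%). A same-strand coding gene's exon overlapped 1, opposite-strand exons alone overlapped 7, and 17 (30.9%) met no other gene. Of the 19 genes named H/ACA in RefSeq, 9 met no other gene, 6 lay on same-strand ncRNA genes, 4 met only opposite-strand exons and 0 lay in introns. The intronic snR191 has no class in its product name, but its namesake in budding yeast is an H/ACA guide. The transfer RNA (tRNA) genes, another set of short genes, were placed otherwise: of 171, 0 lay in an intron of another gene on the same strand (0%) and 161 met no other gene (94.2%). Of the 1536 genes typed ncRNA, 2 lay in a same-strand intron (0.13%).

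The 11 intronic snoRNA genes had 11 different hosts. Several hosts make or use ribosomes, but the share of such genes among all protein-coding genes was not counted. The hosts included rlp7, a ribosome biogenesis protein related to ribosomal protein L7, and rpl701, which RefSeq names as L7-like. They also included cpc2, the RACK1 protein of the small ribosomal subunit, SPAC6F6.03c, the GTPase nog2 of ribosome export, and SPAC29A4.02c, the gamma subunit of elongation factor 1. The hosts ade4 and gua1 encode enzymes of purine nucleotide synthesis, amidophosphoribosyltransferase and IMP dehydrogenase. The remaining hosts were spt20, a subunit of the SAGA transcription coactivator, pfd1, a prefoldin chaperone subunit, ero11, an oxidoreductin of the endoplasmic reticulum, and fta3, a kinetochore protein similar to CENP-H.

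Several of these pairings are known from budding yeast, where introns of the RACK1 gene ASC1, of the EF-1 gamma gene TEF4, of the L7 gene RPL7A, of the IMP dehydrogenase gene IMD4 and of NOG2 hold the snoRNAs U24, snR38, snR39, snR54 and snR191. In the annotation used here the matching names stood together: snoU24b in cpc2, snoR38 in SPAC29A4.02c, snoR39b in rpl701, snoR54 in gua1 and snR191 in nog2. In budding yeast U18 lies in EFB1, the gene of elongation factor 1 beta; here snoU18 lay in ero11, and snoU24 without a suffix lay in spt20.

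The sequences of 7 intronic snoRNAs follow, read from RefSeq ASM294v3 at its own coordinates, 5′ to 3′ on the transcribed strand, to show the ends that define box C/D genes. Capitals mark a C box core (TGATGA) lying in the first 20 bases and a D box (CTGA) in the last 20 bases.
snoR38 (chrI:5144133-5144206, forward strand): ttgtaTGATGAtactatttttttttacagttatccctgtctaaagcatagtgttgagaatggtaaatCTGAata
snoR58 (chrI:5366223-5366297, reverse strand): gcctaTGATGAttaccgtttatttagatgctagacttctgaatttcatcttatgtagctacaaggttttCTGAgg
snoU18 (chrII:2720648-2720733, reverse strand): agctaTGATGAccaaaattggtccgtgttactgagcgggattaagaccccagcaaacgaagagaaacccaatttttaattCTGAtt
snoR54 (chrII:1707601-1707681, forward strand): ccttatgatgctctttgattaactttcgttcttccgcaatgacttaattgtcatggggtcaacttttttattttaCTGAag
snoR47 (chrII:3654333-3654416, reverse strand): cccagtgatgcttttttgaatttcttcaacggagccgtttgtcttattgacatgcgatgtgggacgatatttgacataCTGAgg
snoZ15 (chrII:1756122-1756222, reverse strand): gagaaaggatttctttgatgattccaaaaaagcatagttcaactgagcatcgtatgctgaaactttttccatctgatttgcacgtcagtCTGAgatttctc
snR191 (chrI:2735048-2735175, reverse strand): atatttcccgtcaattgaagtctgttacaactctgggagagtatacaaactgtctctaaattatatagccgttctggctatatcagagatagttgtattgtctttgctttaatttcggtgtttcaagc
The first 3 carry both boxes at their ends and the next 3 a D box alone. In snoR54 and snoR47 the stretch at the C box position reads tgatgc, and in snoZ15 a tgatga runs just past the bases searched. Neither box is marked in snR191, whose name is that of an H/ACA guide in budding yeast; its last letters hold no ACA either.

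An intron counts as a host only if it holds a whole snoRNA gene, so short introns could not be hosts and a greater length is partly set by the rule. The 11 introns with a snoRNA gene had a median length of 253 bases (157 to 441), against 56 bases (1 to 1127) for the other 5287 introns of protein-coding genes. Any gap between exons was counted as an intron, and the others included 9 gaps of 1 base and 14 of 2 bases. Of those others 540 (10.2%) reached the length of the shortest host intron, and 3876 (73.3%) were at least as long as snoU24, the shortest intronic snoRNA. With the snoRNA's own bases taken off, the host introns kept a median of 170 bases (73 to 363), and all 11 stayed above the median of the other introns. That median includes many introns too short to hold these snoRNAs. The 761 other introns at least as long as the longest intronic snoRNA (128 bases) had a median of 188 bases, between the 170 and 253 bases of the hosts. Introns with a snoRNA gene were 0.208% of all 5298 introns. The longest, in rpl701, had 441 bases and held snoR39b with 78 bases. The intron of nog2 had 404 bases around snR191, that of ade4 375 around snoR58, and that of gua1 332 around snoR54. The 293-base intron of SPAC29A4.02c held snoR38, the 253-base intron of cpc2 held snoU24b, the 223-base intron of pfd1 held snoZ15 and the 217-base intron of rlp7 held snoR39a. The shortest were in spt20 (168 bases, snoU24), ero11 (167 bases, snoU18) and fta3 (157 bases, snoR47).

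**Figure D2:**
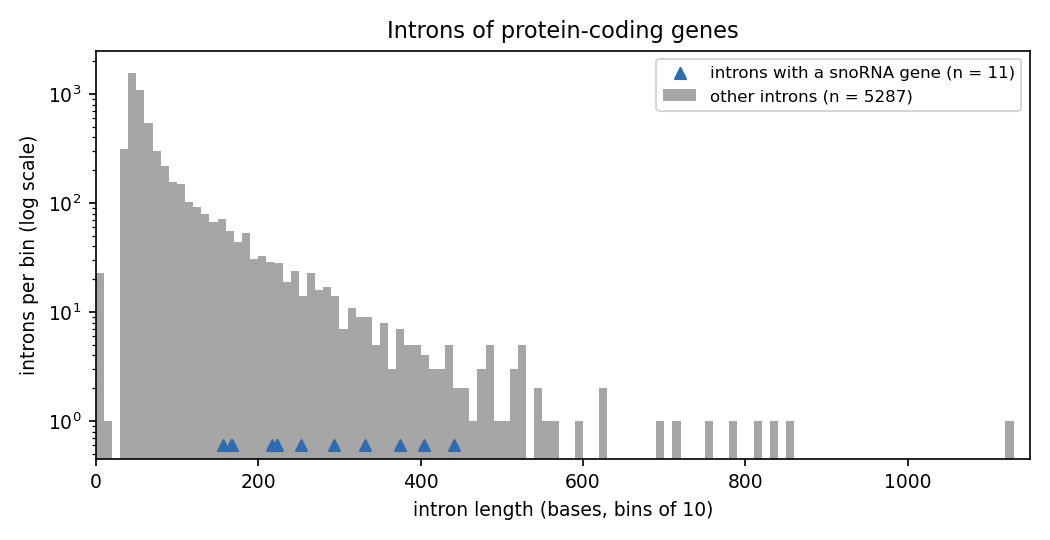
Lengths of introns of protein-coding genes in bins of 10 bases; the vertical axis counts introns per bin on a log scale. Blue triangles stand at the 11 introns that hold a snoRNA gene, between 157 and 441 bases, at a height that carries no value; grey bars are the other 5287 introns, whose median is 56 bases.

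Without its snoRNA, a host intron still left room on both sides. The snoRNA began between 24 and 266 bases after the intron's first base (median 56) and ended between 49 and 258 bases before the last one (median 85). The 3′ distance was under 100 bases in 8 of 11, and the snoRNA lay nearer to the 3′ than to the 5′ splice site in 3 of 11. In snoU18 and snoR47 the snoRNA took 51.5% and 53.5% of the intron, the highest shares, and in snoR39b 17.7%, the lowest. The longest 3′ distance, 258 bases, was that of snoR58 in ade4.

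**Figure D3:**
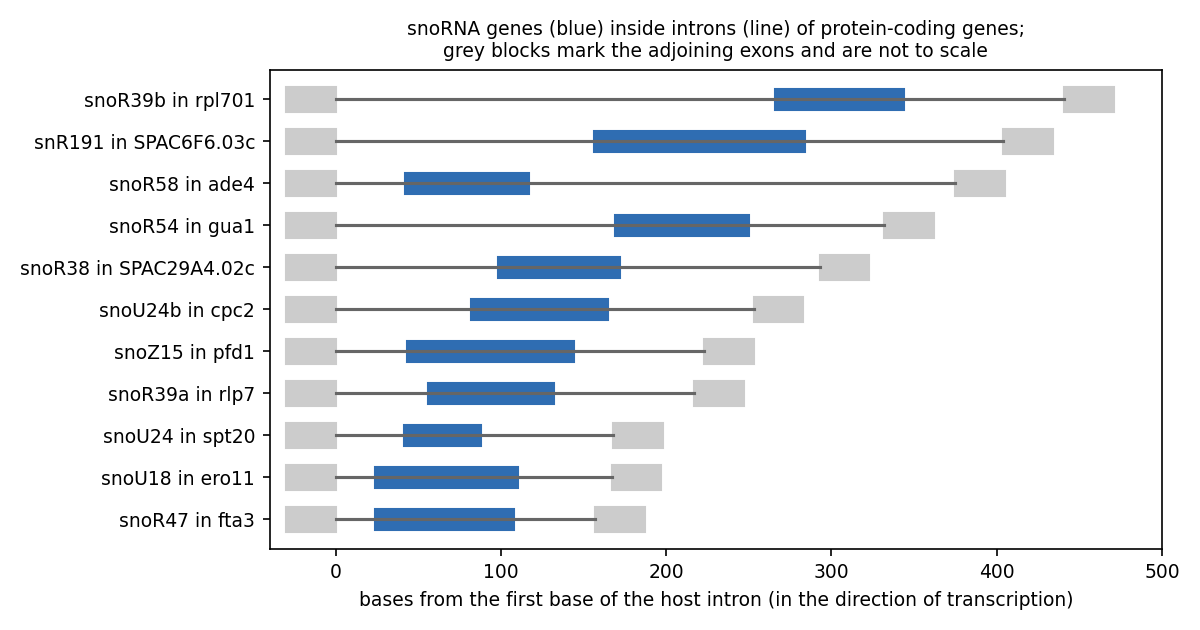
The 11 host introns drawn to scale from their first base in the direction of transcription, longest at the top, with the snoRNA gene in blue and the adjoining exons as grey blocks of arbitrary width. The snoRNA starts between 24 bases (snoU18 and snoR47) and 266 bases (snoR39b) into the intron.

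The place of the intron in the host differed. In 6 hosts (rlp7, cpc2, nog2, SPAC29A4.02c, gua1 and rpl701) the intron lay between coding exons. In ade4 it lay in the 5′ untranslated region, and in spt20, pfd1, ero11 and fta3 in the 3′ untranslated region. It was the only intron in 8 of 11 hosts. Of the other 3, cpc2 and pfd1 carried the snoRNA in their longest intron (253 bases beside one of 197, and 223 beside introns of 151 and 97), and spt20 in its second longest, 168 bases beside one of 191. RefSeq gave all 11 introns the same length. By the RefSeq genome 10 of the 11 began with the letters GTANGT, where N is any base, the exception being spt20 with gtaagg, and all 11 ended in AG. In the deposited annotation 4 of the 1536 ncRNA genes had an intron, 5 introns in all, and 0 of these held a snoRNA gene.

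The snoRNA genes fell into 2 clusters when neighbours within 1000 bases were joined, with 8 genes in all. Of the tRNA genes, 63 of 171 (36.8%) lay within that distance of another tRNA gene, in 17 clusters of up to 12 genes. The first snoRNA cluster ran snoZ8, snoZ7, snoZ5, snoZ4, snoZ3 over 988 bases of chromosome I (526726 to 527713), with gaps of 133, 154, 111 and 149 bases. All 5 lay inside the ncRNA gene SPNCRNA.659 of 1901 bases, which RefSeq calls the primary transcript for these snoRNAs. The first began 85 bases after the ncRNA gene's start, and 828 bases followed the last. The second cluster ran snR41, snR70, snR51b over 562 bases (1200168 to 1200729), with gaps of 140 and 144 bases. It lay inside SPNCRNA.723 of 868 bases, a snoRNA primary transcript in RefSeq, starting 159 bases after its start and ending 147 bases before its end. All 8 genes were on the forward strand and none is called H/ACA.

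**Figure D4:**
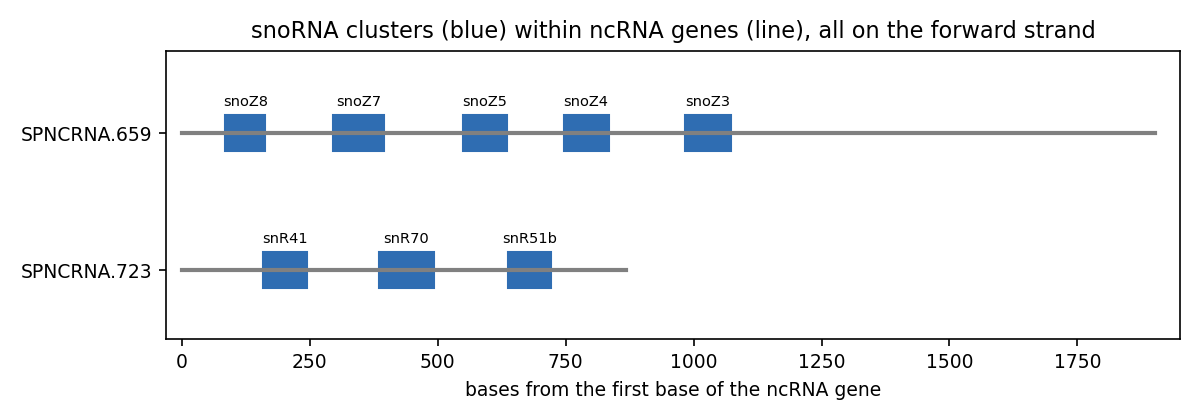
Positions of the snoRNA genes (blue) in the 2 ncRNA genes that hold clusters (grey lines), in bases from the first base of each ncRNA gene. SPNCRNA.659 holds 5 genes, the last of them 828 bases before its end, and SPNCRNA.723 holds 3.

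The spacing within clusters was narrow, 111 to 154 bases with a median of 142. The other 47 genes stood far from any snoRNA gene, at a median of 78.3 kb and at least 3342 bases. That closest pair was snoR58 and snoU24, both intronic, in ade4 and spt20. The next, snoR38 in SPAC29A4.02c and snoR56, lay 4267 bases apart on opposite strands.

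Beyond the clusters, 11 snoRNA genes each lay on an ncRNA gene of their own on the same strand. In all, 19 snoRNA genes lay on 13 ncRNA genes of 281 to 4237 bases, 16 of them wholly inside. RefSeq calls 7 of these ncRNA genes snoRNA primary transcripts, and they hold 13 of the 19. For tRNA genes, 6 of 171 overlapped a same-strand exon of a protein-coding or ncRNA gene (3.51%). For snoRNA genes this count was 20 of 55 (36.4%), a share near that of the genes typed ncRNA, 494 of 1536 (32.2%), but its parts differed. Same-strand ncRNA exons overlapped 34.5% of snoRNA genes and 15.3% of ncRNA genes, and same-strand coding exons 1.82% and 18.8%. The whole gene lay inside a same-strand exon for 30.9% and 6.32%. Single snoRNAs in named primary transcripts included snR98 (211 bases in 487), snR3 (167 in 429), snoZ30 (300 in 1152) and snoR68 (73 in 842). The exceptions to full containment were snR91, snR30 and snR95, which began 8, 8 and 10 bases before their ncRNA genes SPNCRNA.901, SPNCRNA.906 and SPNCRNA.1436. The ncRNA genes of snR97 (4237 bases) and sno16 (2977 bases) were the longest; RefSeq calls the first a non-coding RNA and the second a non-coding RNA that is possibly an alternative untranslated region. The ncRNA genes of snoZ16, snR30, snR90 and snR95 had no entry of the same identifier in RefSeq. The sequence of snR3 is shown as an H/ACA member, with the ACA near its end in capitals.
snR3 (chrII:884166-884332, reverse strand): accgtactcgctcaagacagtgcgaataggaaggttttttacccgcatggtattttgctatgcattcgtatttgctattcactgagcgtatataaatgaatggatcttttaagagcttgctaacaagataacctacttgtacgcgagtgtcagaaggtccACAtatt

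A single snoRNA gene lay on a same-strand exon of a protein-coding gene. All 74 bases of snr62 fell in the 3′ untranslated region of SPAC4H3.12c, a gene of 574 bases that had no entry of the same identifier in RefSeq. No snoRNA gene shared a base with coding sequence on its own strand.

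On the opposite strand 9 snoRNA genes (16.4%) overlapped an exon, 7 with protein-coding (12.7%) and 2 with ncRNA genes. Of the tRNA genes 4 of 171 did so (2.34%), and of the ncRNA genes 1165 of 1536 (75.8%). For exons of protein-coding genes alone the ncRNA count was 960 of 1536 (62.5%). The overlap fell in the 3′ untranslated region for snR97 with rad8, a chromatin remodeller and ubiquitin ligase, sno52 with taf9, a TFIID and SAGA subunit, snoR02 with alg3, a mannosyltransferase of glycan assembly, and snr79 with gpi12, an enzyme of GPI anchor synthesis. These 4 were wholly inside the exon. Of snR36, 86 bases (52.4% of the gene) lay in the 3′ untranslated region of psd1, a phosphatidylserine decarboxylase. Of snR96, 173 bases (82.0%) lay in the 5′ untranslated region of tim17, a mitochondrial import channel subunit. Only sno20 met coding sequence: all its 172 bases lay opposite codons of SPBC1921.04c, a gene of 457 bases that RefSeq lists as an uncharacterized protein. The ncRNA overlaps were those of snR92 with SPNCRNA.1487 and of the intronic snR191 with SPNCRNA.847.

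The 17 genes with no overlap had a median gap of 224 bases (43 to 2512) to the next gene upstream and 242 bases (46 to 2448) downstream. Among them were snoU14, which in budding yeast acts both as a methylation guide and in precursor cleavage, snR10, and all the other genes of chromosome III. The tightest spacing was that of snR33, 43 bases downstream of SPBC12C2.11 and 46 bases from glo1. Next to snR93 stood rpl29, a ribosomal protein gene, 84 bases upstream on the same strand. The longest gene, snoR61, also stood free. It was the only snoRNA gene with more than 1 exon, with exons of 109 and 208 bases around an intron of 336 bases. The letters TGATGA occurred in its RefSeq sequence at base 502, in the second exon, and CTGA at bases 530, 552 and 577, so a stretch bounded by both boxes lay in that exon. In the intron TGATGA occurred at bases 149 and 152, overlapping each other, and CTGA at base 221.

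Box letters followed the product names. Of the 36 genes without H/ACA in the name, a C box core TGATGA lay in the first 20 bases in 18, a D box CTGA in the last 20 in 29, and both in 17. The core began at base 6 to 11, and 2 to 9 bases followed the D box, exactly 2 in 16 genes. With the shorter core GATGA, tried after the sequences were seen, both boxes were found in 21. Of the 19 H/ACA genes 0 had the C box core, 2 had CTGA and 15 had ACA in the last 10 bases, 9 of them with exactly 3 bases after it. The triplet stood there in 4 of the other 36 snoRNA genes, in 14 of 171 tRNA genes (8.19%) and in 953 of 7133 long non-coding RNA genes (13.4%). Among the 15 H/ACA genes with ACA, snR90 was read over its 488-base RefSeq span, whose 3′ end lies 263 bases past that of the deposited gene. Both boxes were found in 0 of 171 tRNA genes and in 5 of 7133 long non-coding RNA genes of RefSeq searched the same way, on the gene's strand only. A missing match says only that these letters were not in the window.

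Pairs of namesakes shared short runs of letters. The pairs were snoR39a with snoR39b, snoR69 with snoR69b, snoU24 with snoU24b, and snoR54 with snoR54b. Their longest shared runs were 13, 13, 10 and 7 bases, where the median over all 1485 pairs of snoRNA genes was 7. A run as long as theirs was found in 3 of all pairs at 13 bases, 62 at 10 bases and 1057 at 7 bases. The 3 pairs included snoR38 with snoR61 at 14 bases. Both snoR39 genes are intronic, in rlp7 and rpl701, whose proteins belong to the same L7 family. The sequences follow, with the run shared with the namesake in capitals.
snoR39a (chrI:1712996-1713071, forward strand): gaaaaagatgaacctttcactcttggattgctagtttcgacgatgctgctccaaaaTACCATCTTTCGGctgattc
snoR39b (chrII:1791743-1791820, reverse strand): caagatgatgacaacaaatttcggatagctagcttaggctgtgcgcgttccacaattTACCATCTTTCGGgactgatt
snoR69 (chrI:5387559-5387641, forward strand): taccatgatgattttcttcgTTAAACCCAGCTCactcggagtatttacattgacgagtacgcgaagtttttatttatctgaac
snoR69b (chrI:4154912-4155002, forward strand): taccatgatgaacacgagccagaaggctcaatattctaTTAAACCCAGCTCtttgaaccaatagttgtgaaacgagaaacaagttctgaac
snoU24 (chrI:5369640-5369686, reverse strand): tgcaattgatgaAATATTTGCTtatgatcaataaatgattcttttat
snoU24b (chrI:2440336-2440418, forward strand): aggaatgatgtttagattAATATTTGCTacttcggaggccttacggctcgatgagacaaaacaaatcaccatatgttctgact
The shared letters lie just before the terminal D box (ctga) in both snoR39 genes. They lie away from it at bases 21 of snoR69, 39 of snoR69b and 19 of snoU24b, counted from the 5′ end to the first shared base. In snoU24 they begin at base 13, and no D box was found near its 3′ end.

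Complementarity to rRNA was longer on the snoRNA strand than on the opposite strand in the genes without H/ACA in the name, and the classes overlapped. The longest run of perfect Watson-Crick complement to 18S, 28S or 5.8S rRNA was found for each snoRNA sequence, and, as a background, for the opposite strand of the same sequence. Among the 36 genes without H/ACA in the name, 34 had a run of at least 10 bases and 11 had one on the opposite strand. The median longest run was 12 bases on the snoRNA strand and 9 on the opposite strand. Among the 19 H/ACA genes, whose known guide contacts are split into short pieces, 15 had such a run on each strand, and the longest runs were 9 to 13 bases, within the 9 to 17 bases of the 36. All 11 intronic snoRNAs had a run of at least 10 bases, with a median of 13, and 2 had one on the opposite strand.

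**Figure D5:**
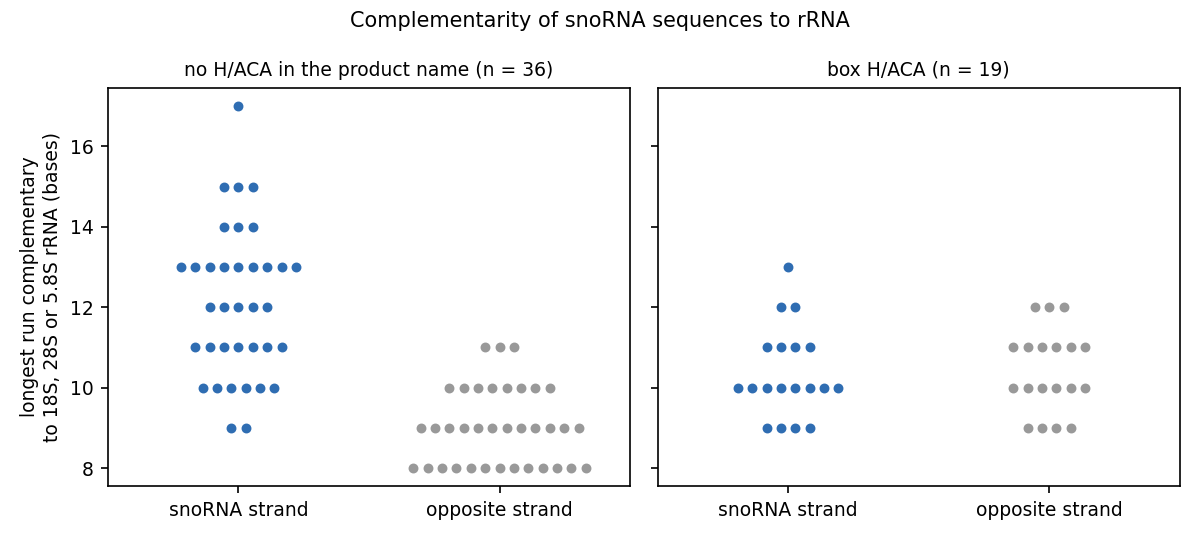
Longest run of perfect complement to 18S, 28S or 5.8S rRNA in bases (vertical axis) for each snoRNA gene, on the snoRNA strand (blue) and on the opposite strand (grey), with 1 point per gene. Among the 36 genes without H/ACA in the name the snoRNA strand reaches 17 bases and the opposite strand 11; among the 19 H/ACA genes they reach 13 and 12.

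The letters CTGA were sought next to the runs. Of the 34 genes, 16 had CTGA within 3 bases after the run, against 0 of the 11 runs on the opposite strand and 0 of the 15 runs of H/ACA genes. But CTGA stood in the last 20 bases of 29 of the 36 genes without H/ACA in the name and 2 of the 19 H/ACA genes. On the opposite strand it was not counted. These counts therefore cannot tell the place of a run apart from the presence of CTGA. The best run was in 18S rRNA for 12 of the 34, in 28S for 21 and in 5.8S for 1. The longest, 17 bases, was that of the cluster gene snR41, 1 base before its terminal CTGA, to bases 1139 to 1155 of 18S rRNA. The snoRNA is shown with the run in capitals, and the rRNA stretch it complements is written 5′ to 3′ as DNA.
snR41 (chrI:1200168-1200253, forward strand): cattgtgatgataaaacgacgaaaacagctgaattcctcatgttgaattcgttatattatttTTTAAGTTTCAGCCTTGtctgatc
18S rRNA: CAAGGCTGAAACTTAAA
Next in length, at 15 bases, were snR51b of the same cluster with 28S bases 2821 to 2835, snoR02 with 18S bases 1245 to 1259 and snoU24b with 28S bases 1478 to 1492. The positions count from the first base of the RefSeq rRNA gene.

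Namesakes matched overlapping rRNA stretches in 3 of the 4 pairs. The run of snoR39a, 12 bases, matched 28S bases 835 to 846, and that of snoR39b, 13 bases, matched bases 834 to 846. The runs of snoR69 and snoR69b matched 28S bases 3038 to 3051 and 3040 to 3051, and those of snoU24 and snoU24b matched bases 1483 to 1492 and 1478 to 1492. The letters shared by these pairs lay largely or wholly inside their rRNA complement. The pair snoR54 and snoR54b differed: snoR54 matched 18S bases 985 to 998, and snoR54b matched 5.8S bases 133 to 143. Of the other intronic members, snoR58 matched 28S bases 685 to 697, snoU18 bases 671 to 682, snoZ15 bases 905 to 918, snoR47 bases 2305 to 2317 and snoR38 bases 2906 to 2918. Outside the introns, snr62 matched 28S bases 1940 to 1952 and snoU14 matched 18S bases 84 to 96, both with 13 bases.

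Promoter letters were searched from 250 bases before to 50 bases after each gene's start in RefSeq. HomolD (CAGTCACA, either strand), an element known from fission yeast ribosomal protein promoters, was found at 10 of 55 snoRNA genes (18.2%), against 63.5% of 137 genes named as ribosomal proteins and 1.65% of all 12605 genes. In the 150 bases before the gene alone it was found at 4 of 55 (7.27%). There the share was 63.5% of the ribosomal protein genes and 1.35% of all genes. The element partly matched by ACCCTACC, HomolE, was found at 1 of 55 snoRNA genes (1.82%), against 29.9% of the ribosomal protein genes and 0.928% of all genes. The letters TATAAA stood on the gene strand at 20 of 55 (36.4%), against 29.2% of all genes. For genes inside a precursor the start that matters is that of the precursor. Among the 11 coding hosts HomolD was found in 3, at 47 bases before rlp7, 50 before cpc2 and 16 before rpl701. Among the 9 ncRNA hosts with a RefSeq entry it was found in 1, SPNCRNA.723, which holds the snR41 cluster, 32 bases before its start. That is the same site as the one counted above for snR41, 191 bases before that gene. The letters are a description and show no binding.

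Both elements occurred before sno20, and the 120 bases before that gene are shown with them in capitals.
upstream of sno20 (chrII:2411070-2411189, forward strand): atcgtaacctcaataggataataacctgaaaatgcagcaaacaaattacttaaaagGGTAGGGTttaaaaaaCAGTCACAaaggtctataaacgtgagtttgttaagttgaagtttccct
HomolE is read there on the reverse strand as GGTAGGGT and is followed by HomolD.

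The genes of snoRNA proteins and processing enzymes were located as well. The list held 14 genes, 8 on I, 5 on IIc and 1 on III. The box C/D core proteins were fib1, the methyltransferase fibrillarin, nop56, nop58 and snu13. The box H/ACA core proteins were cbf5, the pseudouridine synthase, gar1, nhp2 and nop10. The processing genes were pac1, the RNase III that cuts precursors, the 5′ exonuclease dhp1, the exosome nucleases rrp6 and dis3, the helicase mtr4 and the Sm-like protein lsm8. An intron was annotated in 8 of the 14. None of the 14 was a host, and hosts were 11 of all 5123 protein-coding genes (0.215%), so the count of 0 says nothing particular about the list. The gene cbf5 ended 1942 bases before snoR38, with SPAC29A4.02c starting in between.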

How the data were processed

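The deposited gene annotation (GTF) served as the only measurement: per the file headers and columns it gives start and end positions in bases, which the authors deposited for a reference marked as lacking central core 2 of chromosome II. The submitters' processing notes name build ASM294v2 and BWA, Bowtie2, SAMtools, deepTools 2.5.3 and bedtools, with no role given. No sample values were analysed here, so no test was made. Gene spans, introns (gaps between exons), overlaps (at least 1 base; introns must hold the whole gene) and clusters (gaps up to 1000 bases) were computed with Python 3.11.15 and numpy 2.4.6, and the code was tested on simulated data. Positions in the text are those of the deposited annotation, except with sequences, which were read from RefSeq ASM294v3 through the same systematic identifier at RefSeq's own coordinates; these lie 850 bases higher right of that centromere for 15 of 19 genes on IIc. Promoter windows came from that genome.

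Members and lists were chosen with earlier results of these data known. Named with values were cluster members, members with an overlap and their hosts, the shortest and longest, those nearest to centromeres, textbook snoRNAs and a pathway list. The comparison of host intron lengths, with and without the snoRNA's bases, the rRNA complement and the shorter C box were added after the data were seen; the complement allowed no G-U pairs.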

Additional observations from a re-analysis of the deposited data

How the results depend on the processing

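Counting coding bases only, the same-strand exon overlap was 0 instead of 20 and the opposite-strand overlap 1 instead of 9. With RefSeq exons, an alternative added after the data were seen, these were 6 and 19. Only exons of protein-coding, ncRNA and long non-coding RNA genes were counted. RefSeq types SPNCRNA.723, SPNCRNA.814, SPNCRNA.901, SPNCRNA.1394, SPNCRNA.1483 and SPNCRNA.1650 as snoRNA, so these precursors were left out of the RefSeq count. Another 4 ncRNA hosts had no RefSeq entry. Opposite-strand ncRNA exons overlapped 11 members in RefSeq and 2 in the deposited annotation, and the cause was not tested. Members free of protein-coding genes numbered 36, against 17 free of any gene. HomolD was found in 4 members (7.27%), not 10, when only the 150 bases before the gene were searched. For all genes the share was then 1.35%. The rRNA complement of at least 10 bases was found in 34 of the genes without H/ACA in the name and in 11 on the opposite strand. Clusters held 8 genes for gaps up to 500 and 2000 bases, and 12 genes in 4 clusters in place of 2 for gaps up to 5000. Lengths, strands, intronic members (11) and boxes moved by less than 1.5 times in the alternatives run. No paired analysis was possible because the result comes from no test and no sample values were used. RefSeq and the deposited annotation differ in build, so sequences at positions that differ between them were not compared.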
